A study of Bos taurus with 20 samples.

Results

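The genes described here were 35 lysosomal enzymes and membrane proteins, measured in clonal populations of bovine mesenchymal stem cells (MSCs, the adherent fibroblast-like cells of adipose tissue that can form fat, bone and cartilage). They were taken by symbol from a table of 33063 named genes, and all 35 were found there. All 35 were also among the 12900 genes with enough counts to be tested. They comprised 8 cathepsins and other proteases, 9 glycosidases, 4 sulfatases, 4 genes of lipid breakdown, the 2 carriers of cholesterol export, 4 membrane proteins, 3 parts of the proton pump and the transcription factor TFEB.

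The study compared 10 adipogenic (A) with 10 non-adipogenic (N) clones from the fat of 4 calves, a comparison made to find surface markers of the capacity to form fat. RNA was taken from undifferentiated cells, so no clone had received the adipogenic medium when it was sequenced, and clones were grown in medium with fetal serum and bFGF, mixed after sorting with conditioned medium from cultures of the same animal. Each clone was grown from 1 sorted cell. The A clones had formed fat in a first and a second differentiation test and were picked for the highest lipid staining. The N clones had failed the first test and were matched to the A clones in number within each animal. The A clones are thus a selection from the top of the range, and clones of 1 animal share that donor. Animals 17 and 20 gave 1 A and 1 N clone each and animals 22 and 23 gave 4 of each. Clones are named by animal and clone number, so 22-5 is clone 5 of animal 22. The total counts per clone were between 14615500 and 43111300, and the member of fewest counts in any clone, CTSS, still had 24 there.

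The lysosome is the acidic compartment in which cells break down protein, glycans and lipid taken up from outside or delivered by autophagy. A proton pump, the V-ATPase, acidifies it, soluble hydrolases carry out the digestion, heavily glycosylated membrane proteins such as LAMP1 line its wall, and carriers export the products. TFEB and its relatives can switch on many of these genes together. In cells of the adipose lineage the compartment also takes part in matrix turnover, through secreted cathepsins, and in the handling of lipoprotein cholesterol.

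The label of the cells was checked against marker genes. All 8 MSC genes (THY1, NT5E, ENG, CD44, ITGB1, PDGFRA, COL1A1, COL1A2) passed the filter on low counts, and their summed level was between 21735 and 40319 CPM, the counts scaled to library size, in N clones and between 26955 and 47432 CPM in A clones. None of the 8 was called between the groups. N clone 22-5 went against the label in part, with the lowest N levels of THY1 (0.395 CPM), NT5E (0.508 CPM) and ENG (19.1 CPM), where the N medians were 50.1, 83.2 and 347 CPM. Genes of macrophages and osteoclasts, cell types rich in several of these enzymes, were near 0. Of 10 macrophage genes 9 had any count. Their summed level was 0.896 to 12.3 CPM in N clones, median 1.75, and 1.70 to 16.7 CPM in A clones, median 8.82. The N maximum was clone 20-15, and the next N clone, 17-23, was at 3.54 CPM. CD163 and CD14, too low to be tested, had means of 0.279 and 0.849 CPM in N clones. In A clones these means were 1.22 and 1.47 CPM. PTPRC reached at most 0.253 CPM in any clone, TYROBP had 1 count in 1 clone, and ITGAM was at 0 in every A clone. CSF1R, also too low to be tested, lay between 0 and 0.254 CPM in N clones and between 0.476 and 2.38 CPM in A clones. The 1 macrophage gene tested, MRC1, was higher in A clones (log2 fold change 2.00, adjusted p = 0.0248 in the quasi-likelihood test of edgeR, adjusted by Benjamini-Hochberg over all genes). MRC1 was lost without A clone 23-62 (adjusted p = 0.0654). CD68 and LAPTM5, lysosomal membrane proteins best known from macrophages and outside that list, were picked after their values were seen. CD68 was at 0.413 to 2.82 CPM in N clones and 2.01 to 6.74 CPM in A clones (log2 fold change 1.06, adjusted p = 0.0157, edgeR), and LAPTM5 at 0 to 2.78 CPM and 0.0490 to 11.4 CPM (2.31, adjusted p = 0.0582). Leaving out 1 clone, CD68 was called in all 20 fits and LAPTM5 in 5, those without N clones 20-15 or 22-17 or A clones 20-106, 22-121 or 23-108. The 5 osteoclast genes together gave 0.0600 to 2.61 CPM in N clones, median 0.760, and 0.588 to 4.14 CPM in A clones, median 1.59. Of the 8 mesothelial genes 6 were tested, and 1, MSLN, was called lower in A clones. That call held in 8 of the 20 fits without 1 clone. KRT18, WT1 and UPK3B lay below 0 and KRT8 and KRT19 above it, all uncalled. The summed level of the 8 was high in N clones 22-5 and 22-9, at 9198 and 6512 CPM. It was at most 276 CPM in the other N clones and at most 1095 CPM in A clones. The 7 mature adipocyte genes summed to 4.69 to 122 CPM in N clones, median 18.4, and 16.9 to 96.7 CPM in A clones, median 43.4. Of 4 tested, 1, PLIN1, was called higher in A clones. LPL (log2 fold change 1.93), FABP4 (0.94) and CIDEC (-0.64) were not called. The 5 endothelial genes summed to 1.07 to 41.3 CPM in N clones, median 3.17, and 5.12 to 23.7 CPM in A clones, median 8.67. Of 3 tested 0 were called, with PECAM1 nearest (log2 fold change 2.49, adjusted p = 0.0675, edgeR). The part of these markers in the results was not tested beyond the fits that left clones out. In bulk RNA, fewer cells of a type and less RNA per cell cannot be told apart.

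The lysosomal genes leaned to the A clones. Of the 35 members, 11 were higher in A clones at an adjusted p under 0.05 and 0 were lower. Among all genes tested, 10.3% were called higher and 10.3% lower. The 11 were the proteases CTSZ, CTSA and CTSF, the glycosidase HEXA, the sulfatase IDS, the cholesterol carrier NPC2, the membrane proteins LAMP1, SCARB2 and MCOLN1, and the pump subunits ATP6V0D1 and ATP6AP1. Their log2 fold changes lay between 0.34 and 2.13. Only NPC2 and CTSZ passed a change of at least 2-fold as well, a criterion met by 3.95% of all genes in that direction. The median log2 fold change of the members was 0.31, against -0.01 over all genes tested, and 30 of 35 lay above 0, or 85.7% against 48.8% of all genes. At an unadjusted p under 0.05, 20 members were higher, or 57.1% against 17.7% of all genes, and 0 were lower. DESeq2 and limma-voom called 0 members lower as well. The members were chosen with earlier results of these data known. The shares set against all genes, here and below, therefore describe the list and are no test of it.

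The count of 11 depended on which clones entered the fit. It was 7 when the animal was not used as a block, where 7.98% of all genes were called higher, and 0 without animal 23. The loss without animal 23 was not limited to the members, since that fit called 32 of 13071 genes in all and 0.161% higher. There 13 members, or 37.1%, were higher at an unadjusted p under 0.05, against 9.51% of all genes. The count was 6 without N clone 17-23, 23-74 or A clone 17-57 or 23-14, and 7 without N clone 20-15 or A clone 20-106 or 22-27. The 7 without 20-15 or 20-106 include ARSA, not called over all clones. In the fits without 1 clone 8.06% to 12.1% of all genes were called higher. The count was 6 without the N clones 22-5 and 22-9, where 8.27% of all genes were called higher. These were CTSZ, NPC2, MCOLN1, HEXA and CTSF, and ARSB, not called over all clones (log2 fold change 0.56, adjusted p = 0.0277, edgeR). All 11 lay above 0 in every alternative fit that was run.

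**Figure D1:**
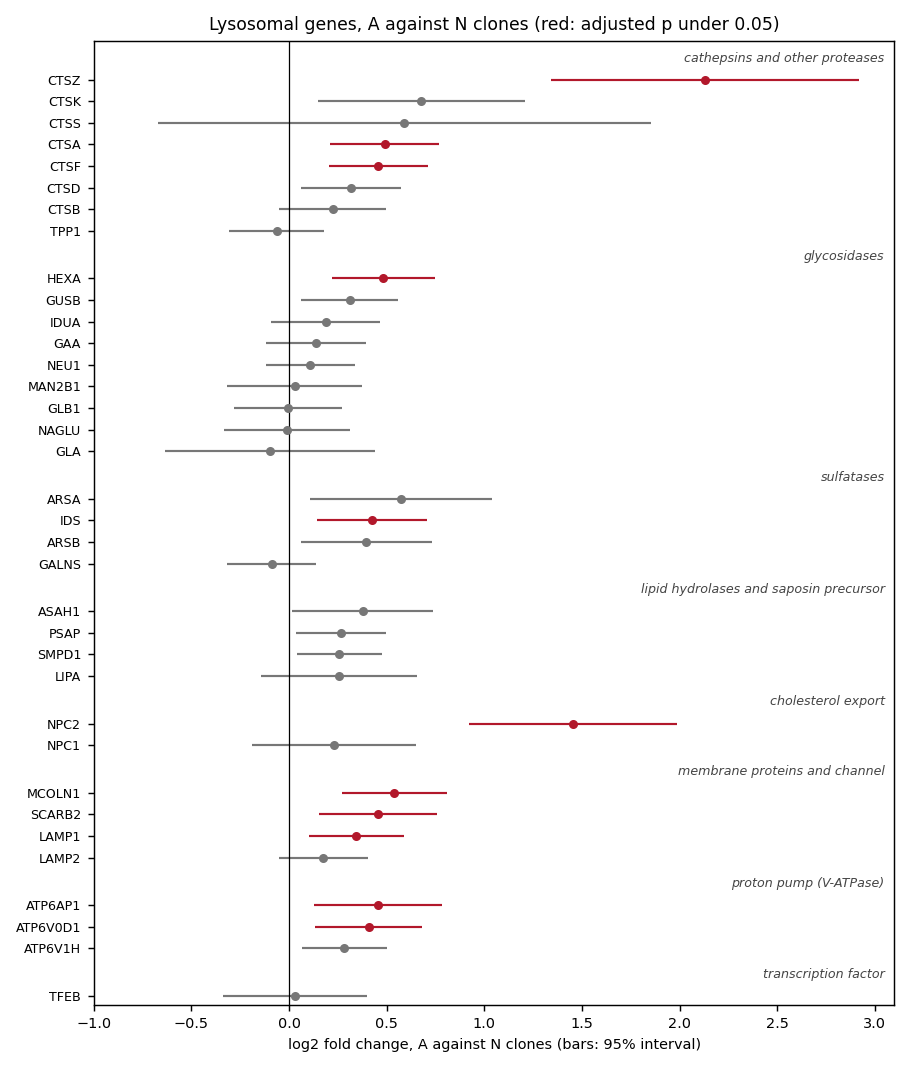
Log2 fold change of each of the 35 genes between A and N clones (horizontal axis, bars showing the 95% interval), grouped by role; red marks an adjusted p under 0.05. CTSZ and NPC2 stand apart to the right at 2.13 and 1.45, 5 genes lie just below 0, and CTSS has the widest interval.

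**Figure D2:**
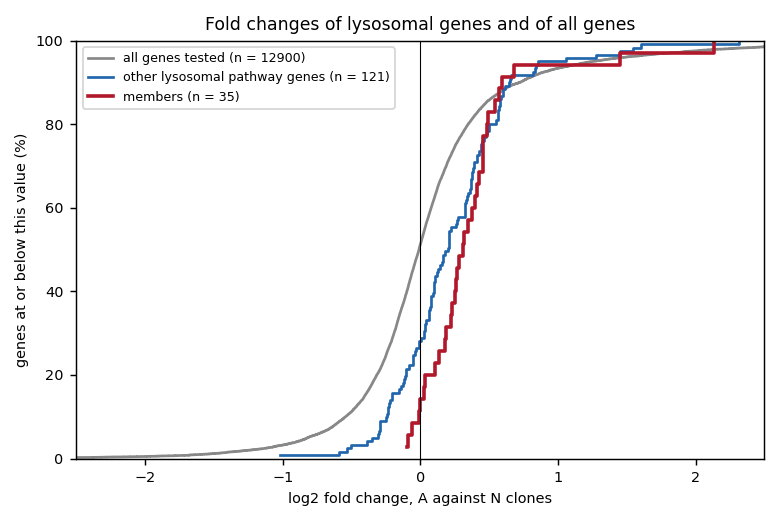
Cumulative share of genes (vertical axis, %) at or below a log2 fold change (horizontal axis) for the 35 members, the other 121 tested lysosomal pathway genes and all 12900 genes tested. The members cross the middle of the vertical axis at 0.31, the other pathway genes at 0.20 and all genes at -0.01.

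Among the proteases, CTSZ (cathepsin Z, a carboxypeptidase) had the largest fold change of the members. Its level was 114 CPM in the lowest N clone, 244 CPM at the median and 1159 CPM in the highest, against 290, 1825 and 2608 CPM in A clones. Only 20-106, the A clone of animal 20, failed to exceed every N clone, at 290 CPM, and 9 did. N clones 22-17 and 22-18 were the highest of their group at 915 and 1159 CPM. The difference was 4.38-fold (log2 fold change 2.13 ± 0.373 SE, adjusted p = 0.00187 in edgeR). Within animals 17, 20, 22 and 23 the log2 differences were 2.86, 0.78, 1.75 and 3.14.

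CTSA, protective protein/cathepsin A, is a carboxypeptidase that also holds beta-galactosidase and neuraminidase in a stable complex. It ranged from 93.3 to 147 CPM in N clones, median 118, and from 113 to 212 CPM in A clones, median 177. The 2 groups overlapped, with 7 A clones above all N clones, and in animal 20 the A clone was the lower one. The log2 fold change was 0.49 ± 0.132 (SE, adjusted p = 0.0167, edgeR), and the adjusted p was 0.0562 without the N clones 22-5 and 22-9. In the gene models of RefSeq CTSA overlaps PLTP, and whether shared reads were counted for either is not stated.

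CTSF (cathepsin F, a cysteine protease) ranged from 32.2 to 55.1 CPM in N clones, median 37.7, and from 35.4 to 70.4 CPM in A clones, median 57.1. Its A clones of animals 17 and 20 were the highest of all 20 clones, while 22-121 and all 4 A clones of animal 23 lay below the highest N clone. It was higher by a log2 fold change of 0.46 ± 0.120 (SE, adjusted p = 0.0150, edgeR), and higher in the A clones of all 4 animals.

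The other proteases did not pass the threshold. CTSK (cathepsin K, a collagenase best known from osteoclasts and also made by fibroblasts) ranged from 707 to 3778 CPM in N clones and from 1871 to 4647 CPM in A clones. It differed by a log2 fold change of 0.68 ± 0.251 (SE, adjusted p = 0.0634, edgeR), and the within-animal differences were 0.79, 0.45, 1.38 and 0.20 in animals 17, 20, 22 and 23. CTSS (cathepsin S, an elastinolytic protease of antigen-presenting cells) was the most variable member between clones of 1 group. It ran from 1.36 to 44.8 CPM in N clones and from 2.95 to 58.2 CPM in A clones, with clones below 5 CPM and above 40 CPM in both groups, and its log2 fold change of 0.59 had an SE of 0.599. CTSD, the aspartic protease, had medians of 615 CPM in N and 825 CPM in A clones (log2 fold change 0.32, adjusted p = 0.0722 in edgeR). CTSB had medians of 700 and 845 CPM and a log2 fold change of 0.22. TPP1, the tripeptidyl peptidase, had medians of 91.9 and 88.6 CPM and a log2 fold change of -0.06, with a 95% interval of -0.31 to 0.18.

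Of the 9 glycosidases only HEXA, the alpha subunit of beta-hexosaminidase, was called. That count is near the 10.3% of all genes called higher and is no result about glycosidases. Its level was 40.4 CPM in the lowest N clone, 55.9 CPM at the median and 63.1 CPM in the highest, against 48.8, 78.4 and 99.4 CPM in A clones. The 7 A clones that exceeded every N clone were 4 from animal 22 and 3 from animal 23. The A clones of animals 17 and 20 and A clone 23-108 lay inside the N range. HEXA was higher by a log2 fold change of 0.48 ± 0.126 (SE, adjusted p = 0.0143, edgeR), with within-animal differences of 0.09, -0.02, 0.65 and 0.52 in animals 17, 20, 22 and 23.

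The remaining 8 glycosidases had log2 fold changes between -0.10 and 0.31. GUSB, beta-glucuronidase, was nearest the threshold, with medians of 137 CPM in N and 175 CPM in A clones (log2 fold change 0.31, adjusted p = 0.0687 in edgeR). IDUA, which removes iduronic acid from heparan and dermatan sulfate, GAA, the glycogen-degrading acid alpha-glucosidase, and NEU1, the sialidase, had log2 fold changes of 0.19, 0.14 and 0.11. MAN2B1, the acid alpha-mannosidase, lay at 0.03, GLB1, beta-galactosidase, at -0.0037, and NAGLU, an enzyme of heparan sulfate breakdown, at -0.0090. For GLB1 the 95% interval of the log2 difference was -0.28 to 0.27. GLA, the alpha-galactosidase that clears globotriaosylceramide, had the lowest log2 fold change of the members at -0.10 ± 0.255 (SE). Its highest level, 185 CPM, was in N clone 22-5, 1 of the 2 with high mesothelial genes, and without 22-5 and 22-9 its log2 fold change was 0.30.

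Among the sulfatases, IDS (iduronate-2-sulfatase, which acts on heparan and dermatan sulfate) ranged from 51.3 to 110 CPM in N clones, median 80.1, and from 87.7 to 157 CPM in A clones, median 112. A clone 20-106, the lowest A clone for many members, was the highest of all for IDS. IDS was higher by a log2 fold change of 0.42 ± 0.134 (SE, adjusted p = 0.0337, edgeR), and 6 A clones lay above all N clones. ARSA, which desulfates sulfatide, ranged from 6.61 to 17.3 CPM in N clones and from 6.13 to 22.3 CPM in A clones (log2 fold change 0.57, adjusted p = 0.0727 in edgeR). ARSB, the dermatan sulfate sulfatase, had medians of 85.6 and 124 CPM (log2 fold change 0.40, adjusted p = 0.0854 in edgeR). GALNS, which acts on keratan sulfate, had medians of 17.0 and 14.7 CPM and a log2 fold change of -0.09.

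No gene of lipid breakdown was called, although all 4 had log2 fold changes above 0, as had 48.8% of all genes. With 4 genes, and 10.3% of all genes called higher, the absence of calls is no result about them. ASAH1, acid ceramidase, lay at 0.38, PSAP, the precursor of the saposin activators, at 0.27, and SMPD1, acid sphingomyelinase, at 0.26. Their 95% intervals lay above 0 and their adjusted p-values were 0.121, 0.0885 and 0.0842 in edgeR. LIPA, the acid lipase that frees cholesterol and fatty acids from lipoprotein lipids, had medians of 40.2 CPM in N and 47.9 CPM in A clones. The estimate was a log2 fold change of 0.26 with a 95% interval of -0.14 to 0.65, and A clone 23-14 stood above all others at 135 CPM. The RefSeq models place several IFIT genes within the span of LIPA.

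The 2 carriers of cholesterol export differed from each other. NPC2, the soluble protein that takes cholesterol from the lumen of the lysosome, was at 142 CPM in the lowest N clone, 352 CPM at the median and 736 CPM in the highest. In A clones these levels were 496, 1130 and 1554 CPM. Only A clone 23-108, at 496 CPM, was not above every N clone. The change was 2.74-fold (log2 fold change 1.45 ± 0.253 SE, adjusted p = 0.00179, edgeR), with within-animal differences of 2.30, 0.79, 1.73 and 1.33 in animals 17, 20, 22 and 23. NPC1, the membrane protein that receives cholesterol from NPC2, ranged from 29.1 to 164 CPM in N clones and from 62.7 to 123 CPM in A clones, with no A clone above all N clones. It had a log2 fold change of 0.23, with a 95% interval of -0.19 to 0.65.

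That contrast was also read from the log2 ratio of the counts within each clone. A set of 5 pairs of genes that work together was examined, chosen after their values were seen, with an exact two-sided permutation test over the 19600 arrangements of the labels within animals. In every pair 1 gene was a called member and its partner was not called, so the direction of the difference followed from the choice. The p-values do not correct for that choice. The log2 ratio of NPC2 to NPC1 was 2.39 ± 0.719 in N clones and 3.65 ± 0.550 in A clones (SD, n = 10 each). The difference of 1.26 had an exact p = 0.00102, or 0.0051 after Benjamini-Hochberg adjustment over the 5 pairs. For CTSA and its partners GLB1 and NEU1 the differences of the log2 ratio were 0.47 and 0.38 (exact p = 0.0536 and 0.111). For LAMP1 against LAMP2 it was 0.16 (exact p = 0.0609), and for IDS against IDUA 0.26 (exact p = 0.237). None of the other 4 ratios passed the threshold over all clones. Leaving out 1 clone at a time, the difference stayed between 1.16 and 1.43 for NPC2 to NPC1, with an exact p of at most 0.00214. The ratio of CTSA to GLB1 passed an unadjusted 0.05 without N clones 20-15 or 22-5 or A clones 20-106 or 23-108 (lowest exact p = 0.00245), that of CTSA to NEU1 without 20-15 or 20-106 (exact p = 0.00959), and that of LAMP1 to LAMP2 without N clones 22-5, 23-22 or 23-23 or A clone 23-108 (lowest exact p = 0.0184).

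Of the 4 membrane proteins, 3 were called higher in A clones, where 10.3% of all genes were. MCOLN1, the calcium channel TRPML1, ranged from 26.3 to 68.8 CPM in N clones, median 43.8, and from 40.5 to 89.6 CPM in A clones, median 61.8. The lowest clone of each group was from animal 17, and 3 A clones lay above all N clones. The log2 fold change was 0.54 ± 0.127 (SE, adjusted p = 0.00882, edgeR), with the A clones higher in all 4 animals. SCARB2, also known as LIMP-2, the receptor that brings glucocerebrosidase to the lysosome, ranged from 304 to 832 CPM in N clones, median 604, and from 478 to 1033 CPM in A clones, median 809. It was higher by 0.45 ± 0.143 (log2 fold change, SE, adjusted p = 0.0338, edgeR), with 5 A clones above all N clones.

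LAMP1, an abundant glycoprotein of the lysosomal membrane, ranged from 344 to 634 CPM in N clones, median 466, and from 518 to 734 CPM in A clones, median 599. Every A clone lay above the N median, and 3 lay above the N maximum. LAMP1 was higher by a log2 fold change of 0.34 ± 0.115 (SE, adjusted p = 0.0430, edgeR). LAMP2, its paralogue, which also serves chaperone-mediated autophagy, ranged from 187 to 383 CPM in N clones and from 262 to 375 CPM in A clones. It had a log2 fold change of 0.18, with a 95% interval of -0.05 to 0.41.

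Of the 3 members of the proton pump, 2 were called higher in A clones, where 10.3% of all genes were. ATP6V0D1, which joins the membrane ring to the rotating stalk, ranged from 131 to 260 CPM in N clones, median 169, and from 166 to 332 CPM in A clones, median 224. The log2 fold change was 0.41 ± 0.130 (SE, adjusted p = 0.0352, edgeR), with overlapping groups and the A clones higher in all 4 animals. ATP6AP1, an accessory subunit needed for assembly, ranged from 62.4 to 165 CPM in N clones, median 114, and from 121 to 210 CPM in A clones, median 154. Its log2 fold change was 0.46 ± 0.156 (SE, adjusted p = 0.0464, edgeR), but within animal 22 the difference was -0.03, against 0.73, 1.56 and 0.56 in animals 17, 20 and 23. ATP6V1H, the regulatory H subunit, had a narrow A range of 83.8 to 110 CPM, against 56.3 to 107 CPM in N clones, and stayed just outside the threshold (log2 fold change 0.28, adjusted p = 0.0586 in edgeR).

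TFEB itself was low and did not separate the groups. It ranged from 7.08 to 12.1 CPM in N clones and from 6.56 to 17.1 CPM in A clones, with the highest level in A clone 23-14. The log2 fold change was 0.03, and its 95% interval of -0.34 to 0.40 leaves room for changes of the size seen in LAMP1. The data are of RNA, so the location of TFEB protein in the cell was not measured.

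The support for the 11 calls was uneven. NPC2, CTSZ, MCOLN1, HEXA, CTSF and CTSA were called in all 20 fits that left out 1 clone. IDS was called in 11 of them, and was lost without N clones 17-23, 20-15, 22-5, 23-22 or 23-74 or A clones 17-57, 20-106, 22-27 or 23-14, with the highest adjusted p at 0.0682. SCARB2 was called in 9, and was lost without N clones 17-23, 20-15, 22-5, 22-17 or 23-74 or A clones 17-57, 20-106, 22-11, 22-16, 23-14 or 23-68, with the highest adjusted p at 0.0661. LAMP1 was called in 8, and was lost without N clones 17-23, 20-15, 22-5, 22-9 or 23-74 or A clones 17-57, 20-106, 22-11, 22-16, 22-27, 23-14 or 23-68, with the highest adjusted p at 0.0825. ATP6V0D1 was called in 8, and was lost without N clones 17-23, 20-15, 22-5, 22-9, 23-22, 23-23 or 23-74 or A clones 17-57, 20-106, 22-27, 22-121 or 23-14, with the highest adjusted p at 0.0703. ATP6AP1 was called in 7, and was lost without N clones 17-23, 20-15, 22-9, 23-10, 23-22, 23-23 or 23-74 or A clones 17-57, 20-106, 22-27, 23-14, 23-62 or 23-108, with the highest adjusted p at 0.0923. In animals 17 and 20 the block leaves no contrast once either clone is gone, so those fits amount to leaving out the animal. The log2 fold change of these 5 genes stayed between 0.30 and 0.53 throughout the 20 fits. In the other direction, CTSD, CTSK, GUSB, ARSA, ARSB, SMPD1, PSAP and ATP6V1H, which were not called, passed the threshold in 1 to 3 of the 20 fits.

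**Figure D3:**
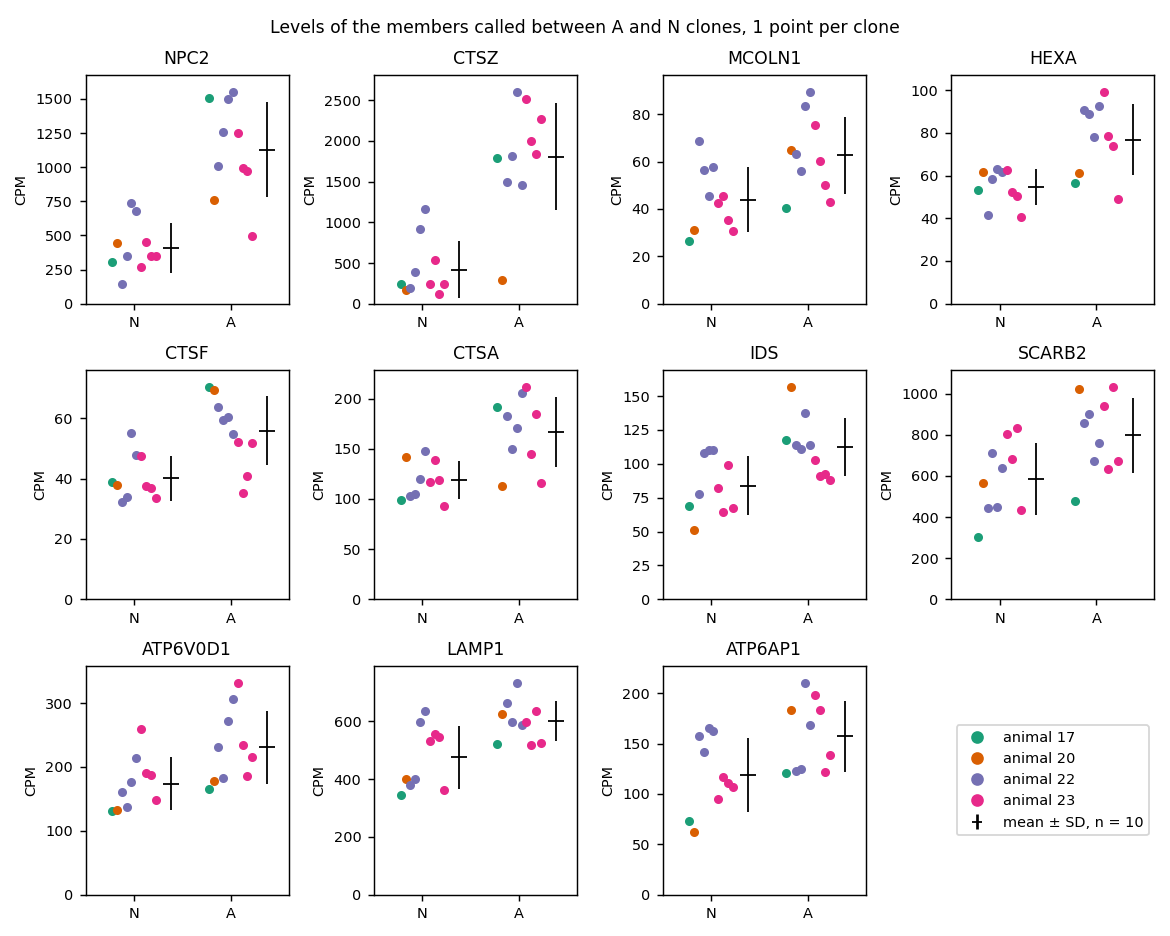
Level of the 11 called genes in each clone (vertical axis, CPM, from 0), N clones on the left and A clones on the right of each panel, coloured by animal, with the mean ± SD of each group beside the points. The points of the groups overlap in every panel, least in NPC2 and CTSZ, where 9 of 10 A clones lie above all N clones.

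None of the 35 members separated the groups completely, and over all genes tested 0.225% had every A clone above every N clone. Within animals, the A clones had the higher level of 31 members in animal 17, of 23 in animal 20, of 29 in animal 22 and of 30 in animal 23. In animals 17 and 20 that count rests on 1 A and 1 N clone, and the shares of all genes within single animals were not computed. A count of 17 members was higher in all 4 animals, or 48.6% of the members against 15.7% of all genes. Of the 11 called, 8 were among them, and the exceptions were CTSA and HEXA in animal 20 and ATP6AP1 in animal 22. The difference between A and N clones was also compared between the 2 animals with 4 clones of each kind. No member differed between animals 22 and 23 past the adjusted threshold when the interaction was tested in edgeR, a call made for 0.0288% of all genes. At an unadjusted p under 0.05 there was 1, ATP6AP1, with a log2 difference of 0.58 between the animals and an adjusted p of 0.524.

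The clones of a group were not alike in their lysosomal genes. A clones 22-121, 22-11 and 22-27 lay above the median of the 20 clones for 31, 29 and 28 of the 35 members. A clones 20-106 and 17-57 did so for only 14 and 15, and 20-106 was the lowest A clone for 12 members, among them CTSZ, CTSA and CTSK. N clones 23-74 and 17-23 lay above the median for 4 and 5 members. N clone 22-18 lay above it for 23, more than 4 of the A clones, and was the highest N clone for 10 members, among them CTSZ, CTSA, LAMP1 and NPC1. The members together took 0.649% to 1.18% of the counts of an N clone, median 0.897%, and 0.851% to 1.61% of an A clone, median 1.38%. Without CTSK, which alone took 0.0784% to 0.446%, the medians were 0.748% in N and 1.01% in A clones. These still include CTSZ and NPC2, whose means were 420 and 407 CPM in N clones and 1807 and 1129 CPM in A clones.

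**Figure D4:**
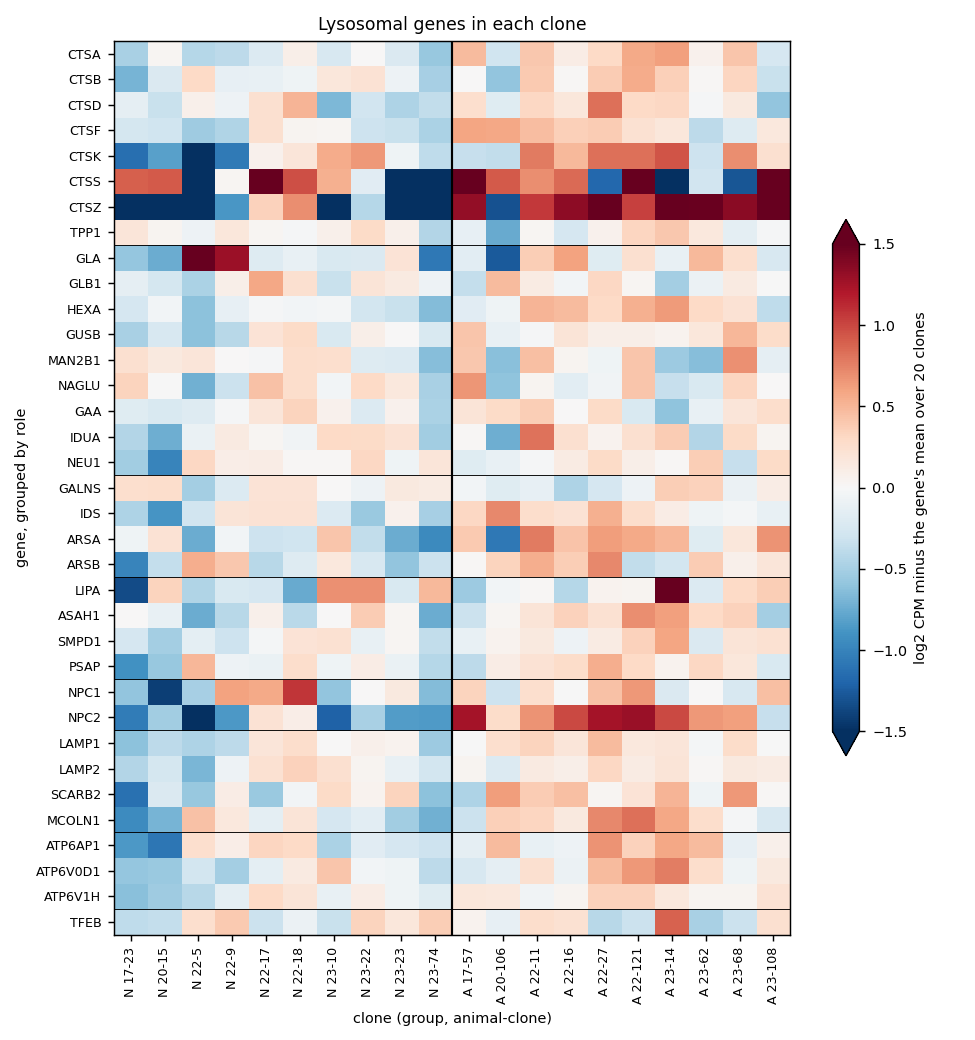
Each gene (rows, grouped by role) in each clone (columns, N on the left and A on the right), coloured by log2 CPM minus the mean of that gene over the 20 clones, with the scale closed at -1.5 and 1.5. CTSZ and NPC2 are mostly blue in N and red in A clones, except N clones 22-17 and 22-18 for both, A clone 20-106 for CTSZ and A clone 23-108 for NPC2, CTSS is strong in both colours on both sides, and GLA is darkest in N clones 22-5 and 22-9.

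Proliferation genes moved with the groups. Of 8 such genes 5 were lower in A clones, and their summed level was 115 to 546 CPM in N clones, median 302, and 29.1 to 328 CPM in A clones, median 141. The N clones with the most, 22-5, 22-9 and 23-74, lay above the median for 10, 12 and 4 of the 35 members, while N clone 22-18, with the least of its group, did so for 23. Among A clones, 20-106 and 17-57 had the lowest proliferation level and the fewest members above the median. In a fit with the proliferation level of each clone as a covariate, added after seeing the data, 2 members were still called, NPC2 (log2 fold change 1.32, adjusted p = 0.0313, edgeR) and CTSZ (1.85, adjusted p = 0.0287). That fit called 474 genes in all, with 2.34% of all genes called higher. At an unadjusted p under 0.05, 7 members, or 20%, were higher, against 11.4% of all genes. The other 9 called members had log2 fold changes between 0.08 and 0.51 there and did not pass the threshold.

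**Figure D5:**
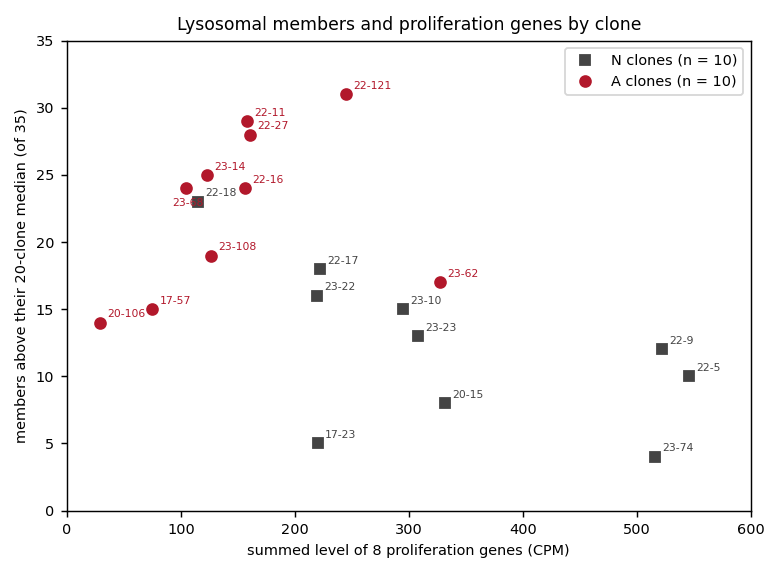
Number of the 35 members above their median over the 20 clones (vertical axis) against the summed level of 8 proliferation genes (horizontal axis, CPM), 1 point for each clone. N clones 22-5, 22-9 and 23-74 lie at the right with 10, 12 and 4 members, and A clones 20-106 and 17-57 at the left with 14 and 15.

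The wider lysosomal pathway was read from a list of 136 other genes, of which 131 had a count and 121 were tested. Of these 28 were higher in A clones and 4 were lower, where 10.3% of all genes were called in each direction, and the median log2 fold change was 0.20. This list, with the V-ATPase genes below, was also chosen with earlier results of these data known, so the shares only describe it. Among the higher genes of smallest adjusted p were the fucosidase FUCA1 (log2 fold change 0.58 ± 0.0956 SE, adjusted p = 0.00134), FNIP2, a folliculin partner in nutrient sensing (0.84 ± 0.143, adjusted p = 0.00162), and ATP6V0B of the proton pump (0.65 ± 0.115, adjusted p = 0.00185), all by edgeR. The 4 lower genes were UVRAG, a partner of Beclin 1 (-0.31, adjusted p = 0.0223), GALC, galactosylceramidase (-0.53, adjusted p = 0.0238), MAP1LC3A, an LC3 protein of autophagosomes (-0.30, adjusted p = 0.0347), and SLC38A9, the arginine sensor of the lysosomal membrane (-0.25, adjusted p = 0.0380, edgeR). GALC ranged from 11.3 to 29.5 CPM in N clones and from 11.3 to 18.6 CPM in A clones, and its A clones were lower in all 4 animals. GALC was lost without clone 17-23 or 17-57, either of which ends the contrast in animal 17 (adjusted p = 0.0517, edgeR). MAP1LC3A was called in 10 of the 20 fits without 1 clone and lost without N clones 22-9, 22-18, 23-10, 23-22 or 23-23 or A clones 22-11, 22-16, 22-27, 23-62 or 23-108. SLC38A9 was called in 9 and lost without N clones 17-23, 22-5, 22-9, 23-10 or 23-22 or A clones 17-57, 22-11, 22-27, 23-14, 23-62 or 23-68. Their highest adjusted p-values in those fits were 0.0649 and 0.0784 in edgeR, and FUCA1, FNIP2 and ATP6V0B were called in all 20.

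Genes of the proton pump lay mostly above 0. Of 24 V-ATPase genes, members included, 20 were tested, 12 were higher in A clones and 0 lower, against 10.3% of all genes each way, with a median log2 fold change of 0.34 against -0.01 over all genes. ATP6V1C1 of the stalk rose by 0.58 ± 0.102 (log2 fold change, SE, adjusted p = 0.00199), and ATP6V0C, the proteolipid of the membrane ring, by 0.65 ± 0.153 (adjusted p = 0.00893, edgeR). These 2, and CTSC, CTSL, TFE3 and MITF below, were picked after their values were seen. Among other proteases 2 of 9 tested genes were higher, CTSC (1.54 ± 0.284, adjusted p = 0.00251, edgeR), the dipeptidyl peptidase that activates serine proteases, and CTSL. CTSL was low, at 0.436 to 13.7 CPM in N clones, and RefSeq lists that symbol as a synonym of CTSV, so its identity is uncertain. It was called in only 4 of the 20 fits without 1 clone, those without N clone 22-5 or A clones 22-27, 22-121 or 23-14. Read against the same 10.3%, other glycosidases had 3 of 9 higher, other membrane proteins 6 of 22 higher and 1 lower, and sorting genes 3 of 12 higher. Other lipid enzymes had 0 of 12 higher and 1 lower, other sulfatases and genes of heparan breakdown 1 of 7 higher, and protease inhibitors 1 of 3 higher. The TFEB family and its controllers had 1 of 17 higher, FNIP2, with a median of -0.05, and TFE3 was at 0.21 (adjusted p = 0.104) and MITF at -0.30 (adjusted p = 0.0965, edgeR). Autophagy genes had 1 of 13 higher and 2 lower, with a median of 0.03. The counts of the lipid enzyme, sulfatase, TFEB and autophagy groups are near the 10.3% of all genes and are no result about them. Without animal 23, 1 of the other pathway genes was called, against 32 over all animals, in a fit that called 32 genes of the whole table.

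Some values could include reads of neighbouring genes. In the RefSeq models 11 of the 35 members overlap another gene, among them CTSA, HEXA, NPC2 and LAMP1 of those called. The gene overlapping NPC2 is a small nuclear RNA, that of HEXA a long non-coding RNA and that of LAMP1 the coding gene GRTP1. The libraries were made with a directional kit, but the strand setting of the counting is not given in the sources used here.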

How the data were processed

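RNA sequencing libraries of 20 undifferentiated clones, 10 A and 10 N, were used, with group, animal and clone taken from the sample labels. The authors deposited raw counts per gene. Per the submitters' processing notes and the study's methods, reads were demultiplexed with bcl2fastq 2.20, trimmed with Trimmomatic 0.36, mapped with STAR 2.5.2b to ARS-UCD1.2 and counted as unique reads within exons with featureCounts of Subread 1.5.2. The genes carry NCBI symbols, and RefSeq models (ARS-UCD2.0) were used only for names and overlaps. One unnamed row, with 0.113% to 0.333% of a clone's counts, was left out, and the number of columns of other samples was 0. No sequences are shown, since none of the build were used here.

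From these counts, edgeR 4.0.16 in R 4.3.3 was fitted to all 12900 genes passing its default filter (TMM scaling, robust quasi-likelihood F test, animal as a block, Benjamini-Hochberg adjustment over all genes), with an adjusted p under 0.05 as the threshold and the SE taken from the F statistic. Levels per clone are given as CPM, counts relative to the TMM-scaled library total, with a prior count of 2 on the log2 scale. The interaction fit held animals 22 and 23 only. The pairing comes from the animals: the deviations of A and N clones of 1 animal correlated at 0.253, 0.193, 0.241 and 0.440 in animals 17, 20, 22 and 23. Clones are separate cultures of 4 donors, so p-values measure the spread between clones.

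The members and the gene lists were chosen with earlier results of these data known. Every member is named, and of the other pathway genes the 4 of smallest adjusted p in each direction, of which the result of 1 is not reported here. Of the listed symbols, 5 were not in the table. Alternatives were no block, other scaling and filters, DESeq2 1.42.0, limma-voom (limma 3.58.1), each animal and each clone left out, and, chosen after seeing the data, a fit without N clones 22-5 and 22-9 a proliferation covariate and the clones left out of the pair ratios. On counts simulated for the comparison of A and N clones (12573 genes tested), the test recovered 77 of 100 genes changed 2-fold and 82 of 100 changed 4-fold, with 6 false calls. For the interaction (12824 genes) it recovered 59.5% of 200 genes changed 4-fold, with 5 false calls. Changes below 2-fold, the size of most differences of the members, were not simulated, so the recovery does not apply to them.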

Additional observations from a re-analysis of the deposited data

Results flagged for a closer look

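In 6 of 70 groups examined (35 genes in A and in N clones), the most extreme clone lay apart from the rest by more than Dixon's 95% critical value for 10 clones, as a share of the group's range on the log2 CPM scale, where chance gives about 3.5. In A clones, 20-106 was low for CTSZ (290 CPM against 1456 CPM in the next clone, a gap of 0.735 of the range), for GLA (24.5 against 49.6 CPM, 0.547) and for ARSA (6.13 against 11.5 CPM, 0.484). A clone 23-14 was high for LIPA (135 against 60.9 CPM, 0.554). In N clones, 23-74 was low for TPP1 (64.9 against 83.9 CPM, 0.502) and for MAN2B1 (34.6 against 46.9 CPM, 0.484).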

How the results depend on the processing

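Of 1155 values of the 35 members over the alternatives, 955 kept their direction and side of the threshold, 111 lost the threshold, 30 gained it and 59 changed sign, and the causes were not tested. The 11 members called became 7 without the replicate block, 7 with no filter on low counts, 17 with DESeq2, 6, 7, 4 and 0 without animals 17, 20, 22 and 23, and 6 to 15 without single clones. The count was 6 without N clones 22-5 and 22-9, including ARSB, which was not among the 11, and 2 with the proliferation covariate. The share of all genes called higher moved too, from 10.3% to 7.98% with no block, 6.89% with no filter and 14.3% with DESeq2. It was 9.60%, 9.54%, 6.49% and 0.161% without animals 17, 20, 22 and 23, and 8.06% to 12.1% without single clones. It was 8.27% without N clones 22-5 and 22-9 and 2.34% with the proliferation covariate. The 2 members past 2-fold became 0 without animal 23, where CTSZ lay at 1.58 (adjusted p = 0.116, edgeR) and NPC2 at 1.501 (0.0934) in a fit that called 32 genes in all. The 32 other pathway genes called became 21 without animal 22, 1 without animal 23 and 6 with the proliferation covariate. No member was called for the interaction under any alternative.

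Signs changed for GLB1, NAGLU, GLA, TPP1, MAN2B1 and TFEB, all within 0.1 of 0, and with the proliferation covariate also for GAA and NPC1, at 0.14 and 0.23 over all clones. GLB1 lay at 0.00655 and NAGLU at 0.000867 with DESeq2, at 0.00652 and 0.000865 with its size factors in edgeR, at 0.0133 and 0.0075 under a filter of 10 counts per clone, and at 0.00776 and 0.0151 with no block. With limma-voom GLB1 lay at 0.0146, NAGLU at 0.00674 and MAN2B1 at -0.00581. With the proliferation covariate TPP1 lay at 0.0687, GLA at 0.328, GAA at -0.0913, NPC1 at -0.11 and TFEB at -0.0359. Without animal 17 GLB1 lay at 0.0215 and TFEB at -0.0147, without animal 20 TPP1 at 0.0181 and NAGLU at 0.0556, and without animal 22 GLA at 0.25, GLB1 at 0.0242 and MAN2B1 at -0.0274. Without animal 23 GLB1 lay at 0.0533, MAN2B1 at -0.0259 and NAGLU at 0.016, and without clones 22-5 and 22-9 GLA at 0.305. Without single clones GLA ranged from -0.20 to 0.0769, GLB1 from -0.0847 to 0.0613, MAN2B1 from -0.107 to 0.117, NAGLU from -0.0777 to 0.0557, TFEB from -0.091 to 0.0918 and TPP1 from -0.119 to 0.0182.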
